A study of Homo sapiens with 12 samples.

Results

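Glutamine uptake and conversion were followed through 8 genes, which encode 3 plasma membrane carriers (SLC1A5, SLC38A1 and SLC38A2) and 5 enzymes (GLUL, GLUD1, GOT1, GOT2 and GPT2). The genes were picked by symbol, and each symbol matched 1 of the 19951 gene entries of the deposited table. The samples were MM6 (MonoMac6) cells, an established human acute myeloid leukemia (AML) line of monocytic type. Cells received a lentiviral short hairpin against IGF2BP2, a protein that binds m6A-marked RNA, in 2 versions (shBP2-1 and shBP2-2), or the control hairpin shNS. All cells, shNS included, had 48 h of transduction and 2 days under puromycin, and grew with 2 mM glutamine, non-essential amino acids, sodium pyruvate and insulin in the medium. Per the labels' protocol, some cells of a sample went to a stranded mRNA library and others, after 15 min of cycloheximide, to ribosome profiling, in which RNA pieces shielded by ribosomes (footprints) were sequenced. Footprint and mRNA libraries are set side by side here by hairpin and replicate number, and the labels do not say that equal numbers mark the same sample. Each hairpin had 2 libraries per assay, so n = 2 throughout, and shBP2-1 and shBP2-2 were each compared with shNS. The sources used here do not say whether the replicates came from separate cultures, so p-values measure the spread between these libraries, which may be technical. The tests also draw the spread of each gene toward that of other genes.

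Glutamine enters cells through sodium-coupled carriers, of which SLC1A5 (ASCT2) trades it for other neutral amino acids while SLC38A1 (SNAT1) and SLC38A2 (SNAT2) accumulate it. Glutamate made from glutamine then becomes 2-oxoglutarate, an intermediate of the TCA cycle, through glutamate dehydrogenase (GLUD1) or through transaminases, which hand its amino group to pyruvate to make alanine (GPT2) or to oxaloacetate to make aspartate (GOT1 in the cytosol, GOT2 in mitochondria). Glutamine synthetase (GLUL) works the opposite way and makes glutamine from glutamate and ammonia. AML cells are known for heavy use of glutamine as a carbon and nitrogen source.

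The deposited values, which the authors called normalized read counts, summed to between 22685066 and 24854593 per mRNA library. Footprint libraries summed to 456338 and 504631 with shBP2-1, 1686279 and 2583384 with shBP2-2, and 4423843 and 4884067 with shNS. Values below are rescaled by 1 median-ratio factor per library within each assay (0.979 to 1.02 for mRNA, 0.269 to 2.99 for footprints), so each change is set against the typical gene of its assay. The targeted gene, IGF2BP2, had rescaled mRNA means of 487 with shBP2-1, 748 with shBP2-2 and 2398 with shNS, and footprint means of 10.8 with shBP2-1, 20.7 with shBP2-2 and 194 with shNS. All 10 monocytic AML markers examined had mean mRNA values of at least 10. Of 5 T or NK cell genes CD3D and CD3E were at 0 and CD3G at or near it, but NKG7 and CD8A reached 10. NKG7 mRNA averaged 1642 with shBP2-1, 1753 with shBP2-2 and 2115 with shNS, and CD8A mRNA 31.7 with shBP2-1, 167 with shBP2-2 and 120.2 with shNS. A mean of at least 10 was also reached by 1 of 3 B cell, 0 of 3 erythroid and 1 of 5 epithelial or fibroblast genes. The summed monocytic marker values ran from 159910 to 162230 with shBP2-1, from 86357 to 87378 with shBP2-2 and from 108738 to 110769 with shNS, mostly from the lysozyme gene LYZ. LYZ mRNA was 163% of shNS with shBP2-1 and 82.2% with shBP2-2. Other markers went either way. With shBP2-1 and shBP2-2 in turn, MPO mRNA was 67.2% and 30.5% of shNS and SPI1 83.2% and 64.1%. ITGAM was 151% and 151%, and CD86 130% and 154%. The T or NK sums ran from 1492 to 1855 with shBP2-1, from 1778 to 2062 with shBP2-2 and from 2233 to 2238 with shNS. The part of these genes in the results below was not tested.

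Transcripts of 6 of the 8 glutamine genes were lower in the mean of both IGF2BP2 hairpins than with shNS, and none was higher. All 3 importers were among them, led by SLC38A1 and SLC1A5, together with GPT2, GOT1 and GLUL. GLUD1 and GOT2 did not pass the test. These calls compare the mean of both hairpins with shNS by limma, with a Benjamini-Hochberg adjusted p under 0.05 over 12203 genes, of which 29.3% were called lower and 29.1% higher. The median log2 change was -0.52 over the 8 genes and -0.01 over all genes tested. Of the 2 genes not called, neither had an unadjusted p under 0.05 in the higher direction, and limma voom weights also called 6. The standard error (SE) for the mean of both hairpins leaves out the difference between the hairpins, so each hairpin is given beside it for the 8 genes. With shBP2-1 alone all 3 importers were lower. With shBP2-2 alone 1 importer was lower (SLC1A5), 1 was higher (SLC38A2) and 1 was not called (SLC38A1). GLUL was called lower with shBP2-2 only. In these bulk samples fewer cells of a kind and less RNA per cell cannot be told apart.

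SLC1A5 (chr19:46774883-46788594, RefSeq GRCh38.p14) had rescaled mRNA values of 5209 and 4270 with shBP2-1, 6251 and 7477 with shBP2-2, and 11521 and 11216 with shNS. All 4 knockdown libraries lay below both shNS libraries, and the hairpins did not overlap each other. The log2 change against shNS was -1.27 ± 0.12 (SE) with shBP2-1 (adjusted p = 1.14e-05, limma) and -0.73 ± 0.12 with shBP2-2 (adjusted p = 3.52e-04), a 2.41-fold and a 1.66-fold decrease. The mean of both was -1.0 ± 0.10 (adjusted p = 2.89e-05).

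SLC38A1 and SLC38A2 are neighbours on chromosome 12 (chr12:46183063-46269043 and chr12:46358188-46372773), and both fell with shBP2-1. SLC38A1 mRNA stood at 10.8 and 13.9 with shBP2-1, 128 and 135 with shBP2-2, and 171 and 141 with shNS. The shBP2-1 level was 7.93% of shNS and the shBP2-2 level 84.2%, so nearly the whole change came with 1 hairpin. The log2 change was -3.56 ± 0.22 with shBP2-1 (adjusted p = 2.97e-07, limma) and -0.24 ± 0.22 with shBP2-2 (adjusted p = 0.371), where the 95% interval of -0.72 to 0.24 still allows a moderate decrease. The pseudocount of 1 in the log understates changes at values this low. The difference between the hairpins was -3.32 ± 0.22 (adjusted p = 5.70e-07).

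SLC38A2, a carrier known for its induction when amino acids run short, had mRNA values of 3665 and 4274 with shBP2-1, 10344 and 9786 with shBP2-2, and 8183 and 8622 with shNS. Here the hairpins moved apart, below shNS with shBP2-1 and above it with shBP2-2. Against shNS the log2 change was -1.09 ± 0.10 with shBP2-1 (adjusted p = 1.29e-05, limma) and 0.26 ± 0.10 with shBP2-2 (adjusted p = 0.0408). The small rise with shBP2-2 was not called when replicate 1 or replicate 2 of shBP2-2 was left out (adjusted p = 0.227 and 0.0686), when replicate 1 or replicate 2 of shNS was left out (0.249 and 0.121), or with quantile scaling (0.0996). The mean of both hairpins, -0.41 ± 0.09 (adjusted p = 0.00184), therefore averages changes of opposite sign.

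**Figure D1:**
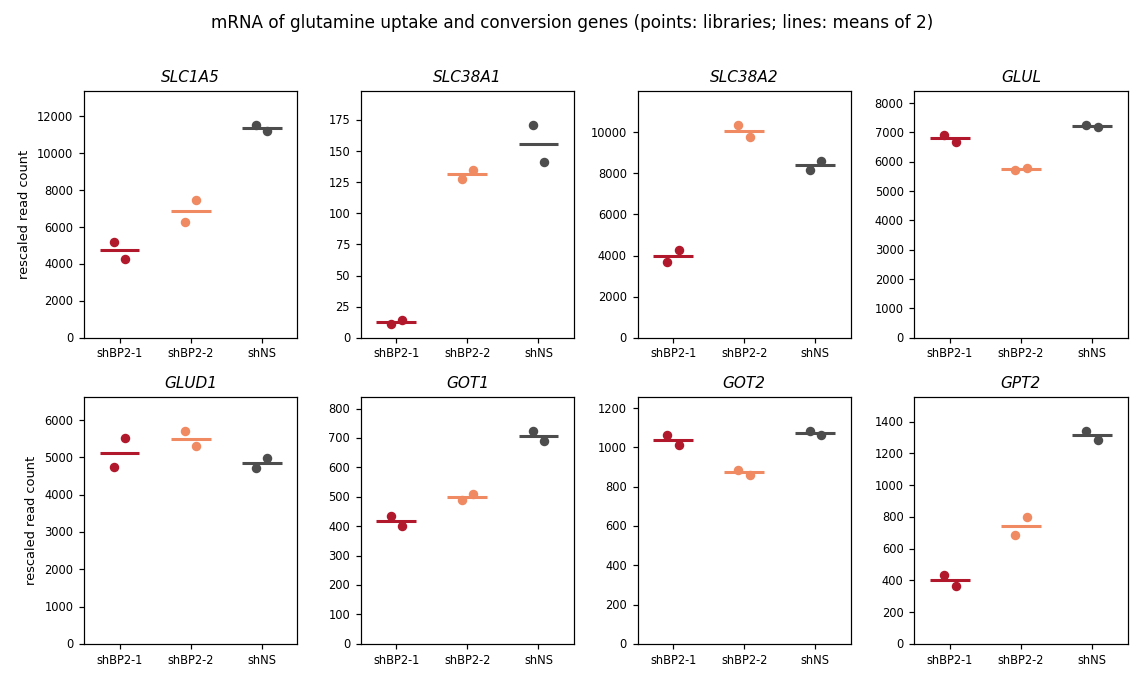
Rescaled mRNA read counts (y axis, from 0, a scale of its own for each gene) of the 8 glutamine genes in the libraries of shBP2-1, shBP2-2 and shNS (x axis); points are libraries and lines the means of 2. SLC38A1 falls to 10.8 and 13.9 with shBP2-1 and SLC38A2 splits between the hairpins, while SLC1A5, GOT1, GPT2 and, by less, GLUL lie below shNS in all 4 knockdown libraries.

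Among the enzymes, GPT2, the mitochondrial alanine transaminase (chr16:46884362-46931289), changed most. Its mRNA was 436 and 365 with shBP2-1, 684 and 799 with shBP2-2, and 1340 and 1287 with shNS. The 3 groups did not overlap and stood in the order shBP2-1, shBP2-2, shNS. The log2 change was -1.72 ± 0.12 with shBP2-1 (adjusted p = 1.06e-06, limma) and -0.83 ± 0.12 with shBP2-2 (adjusted p = 2.45e-04), and the mean of both was -1.27 ± 0.11 (adjusted p = 6.02e-06). The shBP2-2 change of GPT2 missed the threshold when mRNA and footprint libraries were fitted together with 1 shared spread (adjusted p = 0.0712). GPT, the cytosolic alanine transaminase, was listed at 0 in 5 of the 6 mRNA libraries and at 1 in shBP2-2 replicate 2.

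GOT1, the cytosolic aspartate transaminase (chr10:99396870-99430624), had mRNA values of 435 and 402 with shBP2-1, 490 and 510 with shBP2-2, and 723 and 690 with shNS. All knockdown libraries were again below both shNS libraries. Against shNS the log2 change was -0.76 ± 0.11 with shBP2-1 (adjusted p = 5.41e-04, limma) and -0.50 ± 0.11 with shBP2-2 (adjusted p = 0.00262). The hairpins did not pass the test against each other (-0.26, 95% interval -0.50 to -0.02, adjusted p = 0.115).

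The mitochondrial counterpart GOT2 (chr16:58707131-58734316) had 1065 and 1013 with shBP2-1, 887 and 862 with shBP2-2, and 1082 and 1065 with shNS. Only the shBP2-2 libraries stood apart, and GOT2 was called lower with that hairpin alone (-0.30 ± 0.10, adjusted p = 0.0235, limma). That call was lost without either shBP2-2 library (adjusted p = 0.102 and 0.129) or either shNS library (0.170 and 0.129).

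GLUL, the enzyme that makes glutamine (chr1:182378098-182391790), had 6924 and 6676 with shBP2-1, 5716 and 5784 with shBP2-2, and 7246 and 7198 with shNS. As for GOT2 the shBP2-2 libraries were lowest, but the shBP2-1 libraries of GLUL also lay below both of shNS. Its log2 change was -0.33 ± 0.09 with shBP2-2 (adjusted p = 0.00738, limma) and -0.09 ± 0.09 with shBP2-1 (adjusted p = 0.437). The mean of both, -0.21 ± 0.08 (adjusted p = 0.0337), was not called once any 1 of the shBP2-2 or shNS libraries was left out (adjusted p = 0.126 and 0.0945 for the shBP2-2 replicates, 0.253 and 0.216 for those of shNS). The shBP2-2 value of GLUL depended on replicate 1 of shBP2-2 (0.0758 when left out) and on both shNS replicates (0.0980 and 0.0807).

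GLUD1, glutamate dehydrogenase (chr10:87050202-87094843), had mRNA values of 4736 and 5526 with shBP2-1, 5702 and 5306 with shBP2-2, and 4728 and 4972 with shNS. The groups overlapped for shBP2-1 and shNS, and the mean of both hairpins was 0.13 ± 0.09 (95% interval -0.06 to 0.32, adjusted p = 0.219, limma). Without shBP2-1 replicate 1 the same comparison of GLUD1 passed the test (0.18, adjusted p = 0.0315). GLUD2, a near-identical copy without introns, had mRNA means of 14.4 with shBP2-1, 12.7 with shBP2-2 and 7.95 with shNS, and footprint means of 69.2 with shBP2-1, 32.7 with shBP2-2 and 25.1 with shNS. The sources used here do not say how reads shared by the copies were assigned, and their part in the GLUD1 values was not tested. The same holds for processed pseudogenes of GLUL and GOT2.

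Taken hairpin by hairpin, shBP2-1 lowered 5 of the 8 transcripts and raised 0 (over all genes 20.8% were called lower and 23.7% higher). With shBP2-2 5 were lower and 1, SLC38A2, was higher (28.6% lower and 28% higher over all genes). The median log2 change of the 8 genes was -0.92 with shBP2-1 and -0.31 with shBP2-2. For shBP2-1 limma also found 0 higher at an unadjusted p under 0.05, and voom weights called 5 genes in all. Tested against each other, the hairpins differed for 4 of the 8 (11.5% of all genes were lower and 11.8% higher with shBP2-1 than with shBP2-2), and SLC1A5, SLC38A1, SLC38A2 and GPT2 were all lower with shBP2-1. For SLC1A5 this difference was -0.54 ± 0.12 (adjusted p = 0.00505) and for GPT2 -0.89 ± 0.12 (adjusted p = 2.13e-04, but 0.132 with both assays in 1 fit), while GLUL, GLUD1 and GOT2 gave 0.24, -0.10 and 0.25 with adjusted p of 0.0665, 0.491 and 0.0927. IGF2BP2 mRNA was also lower with shBP2-1 than with shBP2-2 (-0.62 ± 0.11).

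Promoter windows are shown for the neighbouring carriers SLC38A1 and SLC38A2 and for GOT1, a choice that rests in part on the matches themselves. SLC38A1 and GOT1 hold TGATGNAA, the form searched for of the element bound by ATF4, a transcription factor of amino acid shortage. SLC1A5 and GPT2 also fell with shBP2-1. The SLC1A5 window, not shown, has no match, and GPT2 had no window. Each window covers 250 bases before and 50 bases after the RefSeq start (GRCh38.p14), is written 5′ to 3′ on the strand of the gene, and has matches in capitals.
SLC38A1, chr12:46266467-46266766, minus strand: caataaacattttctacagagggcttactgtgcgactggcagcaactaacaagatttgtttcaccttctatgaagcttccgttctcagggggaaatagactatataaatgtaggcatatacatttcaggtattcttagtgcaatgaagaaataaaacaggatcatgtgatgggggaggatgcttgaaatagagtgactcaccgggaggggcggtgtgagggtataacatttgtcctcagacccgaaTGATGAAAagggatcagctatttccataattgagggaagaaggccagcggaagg
SLC38A2, chr12:46372724-46373023, minus strand: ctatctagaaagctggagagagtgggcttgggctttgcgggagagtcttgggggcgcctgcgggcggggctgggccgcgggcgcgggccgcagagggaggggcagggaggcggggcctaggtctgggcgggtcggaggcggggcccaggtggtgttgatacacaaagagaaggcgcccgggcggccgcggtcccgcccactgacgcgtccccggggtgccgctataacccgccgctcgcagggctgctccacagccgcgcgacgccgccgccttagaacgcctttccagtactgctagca
GOT1, chr10:99430575-99430874, minus strand: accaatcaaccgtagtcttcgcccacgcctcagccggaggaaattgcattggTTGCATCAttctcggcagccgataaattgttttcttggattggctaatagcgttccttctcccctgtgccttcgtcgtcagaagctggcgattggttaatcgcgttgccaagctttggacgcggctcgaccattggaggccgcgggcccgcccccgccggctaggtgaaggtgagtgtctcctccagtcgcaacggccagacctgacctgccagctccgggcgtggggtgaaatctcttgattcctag
SLC38A1 holds TGATGAAA on its own strand at bases -4 to 4 around a start that lies within the span of the gene. GOT1 holds TGATGCAA on the opposite strand at bases -198 to -191, and the SLC38A2 window has no match. Of the 8 members 7 were in the table of windows, and 2 of these 7 held TGATGNAA on either strand, against 3.67% of all 27305 windows. CACGTG, the core bound by MYC and related factors, was in 0 of the 7 and in 7.44% of all windows. A match of letters describes the window and does not show binding, and no match says only that the letters are not in this window.

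**Figure D2:**
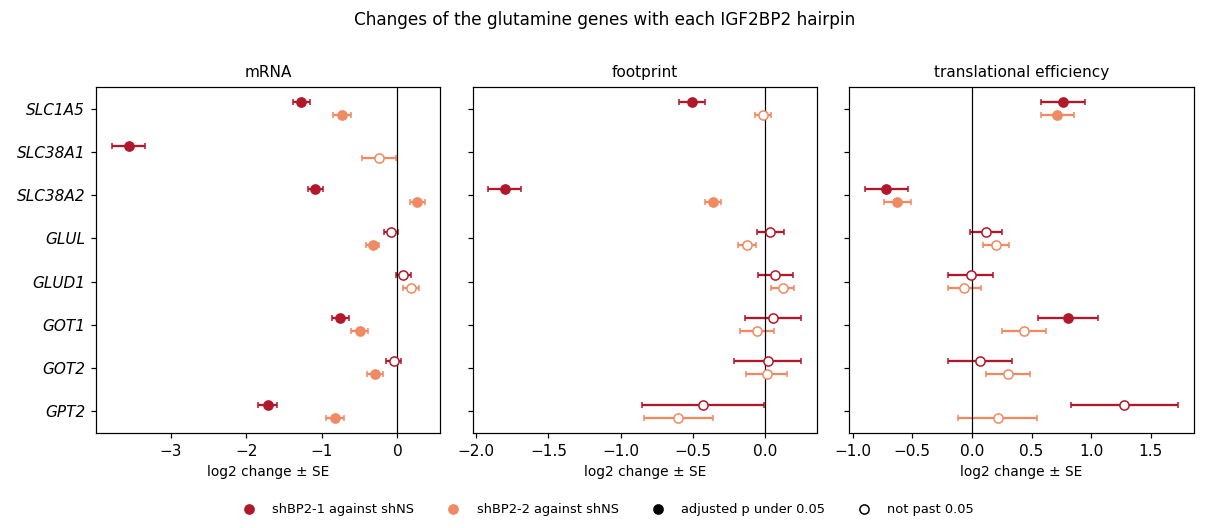
log2 changes against shNS (x axis, with SE bars) of the 8 glutamine genes (rows) with shBP2-1 and shBP2-2 in mRNA, footprints and translational efficiency; filled points have an adjusted p under 0.05. In mRNA the hairpins split for SLC38A1 and SLC38A2, in footprints only SLC1A5 and SLC38A2 have filled points, and in translational efficiency SLC1A5 lies near 0.7 and SLC38A2 near -0.7 with both hairpins.

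In ribosome footprints both genes called lower were importers, SLC38A2 and SLC1A5. None of the 5 enzymes passed the test in either direction in the mean of both hairpins, GPT2 and GOT1 included, and 0 of them had an unadjusted p under 0.05 or were called by limma-trend. Footprints were tested with limma voom weights in 7 of the 8 genes, since SLC38A1 fell under the minimum mean value of 10. Of those, 2 were called lower and 0 higher in the mean of both hairpins, while 4.28% of 9306 genes tested were called lower and 4.96% higher. The median log2 change was -0.05 over the 7 genes and -0.01 over all genes. With shBP2-1 2 of the 7 were lower (2.88% lower and 3.86% higher over all genes) and with shBP2-2 1 was lower (5.32% and 7.02%). Between the hairpins 2 were lower with shBP2-1 (3% and 3.27%).

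SLC38A2 footprints were 408 and 380 with shBP2-1, 1020 and 1119 with shBP2-2, and 1381 and 1384 with shNS. Both hairpins lay below shNS without overlap, also shBP2-2, whose SLC38A2 mRNA had been above it. The log2 change was -1.80 ± 0.11 with shBP2-1 (adjusted p = 1.19e-06, limma voom) and -0.36 ± 0.05 with shBP2-2 (adjusted p = 7.11e-04), and the mean of both was -1.08 ± 0.07 (adjusted p = 1.90e-06). These calls of SLC38A2 held without any 1 library. The hairpins differed by -1.44 ± 0.12 (adjusted p = 1.22e-05).

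SLC1A5 footprints were 659 and 640 with shBP2-1, 909 and 918 with shBP2-2, and 944 and 905 with shNS. The shBP2-1 libraries stood below all others and those of shBP2-2 lay within the range of shNS. Against shNS the log2 change was -0.51 ± 0.09 with shBP2-1 (adjusted p = 0.00581, limma voom) and -0.02 ± 0.05 with shBP2-2 (95% interval -0.13 to 0.10, adjusted p = 0.874), and the hairpins differed by -0.49 ± 0.09 (adjusted p = 0.00862). The mean of both was -0.26 ± 0.06 (adjusted p = 0.0136). The footprint calls of SLC1A5 need both shBP2-1 libraries, since leaving out the first or the second gave adjusted p of 0.106 and 0.118 for the shBP2-1 change, 0.114 and 0.132 for the mean of both, and 0.125 and 0.127 for the difference between hairpins. They also missed the threshold when both assays were fitted together (0.119 with shBP2-1).

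SLC38A1 footprints were too few to test. Their deposited values were 0 and 0 with shBP2-1, 0 and 1 with shBP2-2, and 9 and 6 with shNS, from libraries whose totals differ as given above.

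Footprint values of GLUL, GOT1, GLUD1 and GOT2 stayed near those of shNS. GLUL had 726 and 663 footprints with shBP2-1, 657 and 598 with shBP2-2, and 679 and 681 with shNS. GOT1 had 104 and 108 with shBP2-1, 103 and 96.1 with shBP2-2, and 100.2 and 107 with shNS. For GLUL the shBP2-1 libraries lay on either side of shNS and those of shBP2-2 below it, and for GOT1 both hairpins overlapped shNS. For the mean of both hairpins the log2 change was -0.05 (95% interval -0.18 to 0.09) for GLUL and -0.0038 (-0.27 to 0.26) for GOT1. The mRNA estimates, -0.21 for GLUL and -0.63 for GOT1, lie outside these intervals. This comparison leaves out the error of the mRNA estimates, and the direct test, translational efficiency, is given below. For the same mean GLUD1 footprints (398 and 462 with shBP2-1, 412 and 470 with shBP2-2, 398 and 420 with shNS) gave a log2 change of 0.10 (-0.08 to 0.27). GOT2 (97 and 141 with shBP2-1, 118 and 116 with shBP2-2, 129 and 104 with shNS) gave 0.01 (-0.31 to 0.33), and its shBP2-1 replicates spanned those of both other groups.

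GPT2 had the fewest footprints among the tested members, with deposited values of 10 and 4 for shBP2-1, 19 and 36 for shBP2-2, and 95 and 93 for shNS. After rescaling these were 33.5 and 14.9 with shBP2-1, 18.9 and 23.4 with shBP2-2, and 31.7 and 34.6 with shNS. The shBP2-2 libraries were below shNS and the shBP2-1 replicates lay on either side of shBP2-2. The log2 change was -0.60 ± 0.24 with shBP2-2 (adjusted p = 0.120, limma voom) and -0.43 ± 0.42 with shBP2-1 (adjusted p = 0.582). With the mean of both at -0.52 and an interval of -1.07 to 0.04, a decrease as large as the mean mRNA change was outside the interval, but one of about the shBP2-2 mRNA change was not. This again leaves out the mRNA error, and the direct test, translational efficiency, did not call GPT2 (adjusted p = 0.0723, limma voom).

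**Figure D3:**
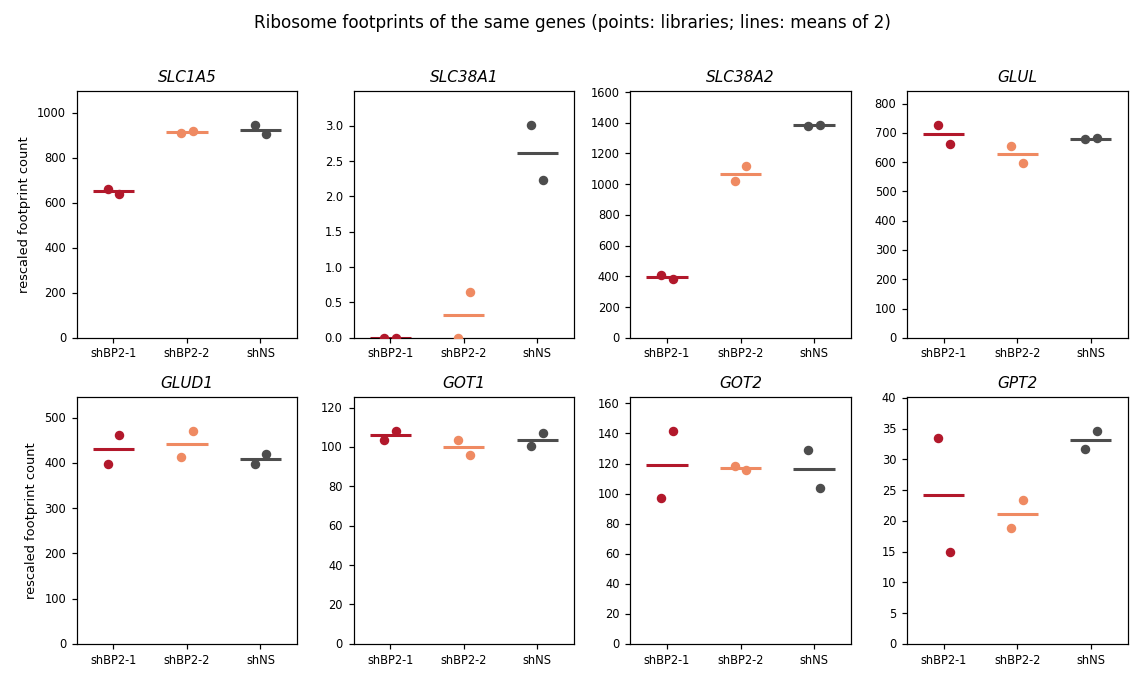
Rescaled footprint counts (y axis, from 0, a scale of its own for each gene) of the 8 genes in the libraries of shBP2-1, shBP2-2 and shNS (x axis); points are libraries and lines the means of 2. SLC38A2 is lower with both hairpins and SLC1A5 with shBP2-1, the enzymes overlap shNS with either hairpin except GLUL and GPT2 with shBP2-2, and SLC38A1 stays at or under 3.0.

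Translational efficiency, the footprint change minus the mRNA change, moved in opposite directions for the 2 tested importers. SLC1A5 rose by this measure and SLC38A2 fell, each by a similar amount with either hairpin, and GOT1 rose in the mean of both. Over the 7 genes tested, 1 was called lower and 2 higher in the mean of both hairpins, beside 15.6% lower and 13.2% higher of 9216 genes. The median was 0.19 over the 7 genes and -0.04 over all genes. With shBP2-1 1 was lower and 2 were higher (5.91% lower and 4.84% higher over all genes), and with shBP2-2 1 was lower and 1 higher (11.9% and 12%). Between the hairpins limma voom called 0 of the 7 (0.597% lower and 0.271% higher over all genes), with 1 gene, GPT2, at an unadjusted p under 0.05, and limma-trend also called 0.

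SLC1A5 had 12.7 and 15.0 rescaled footprints per 100 rescaled mRNA reads of the same replicate number with shBP2-1, 14.5 and 12.3 with shBP2-2, and 8.19 and 8.07 with shNS. The knockdown libraries were all above shNS and the hairpins overlapped. The log2 change of translational efficiency was 0.76 ± 0.19 with shBP2-1 (adjusted p = 0.0190, limma voom) and 0.72 ± 0.14 with shBP2-2 (adjusted p = 0.00301), and the mean of both was 0.74 ± 0.13 (adjusted p = 0.00155). The difference between the hairpins was 0.05 with a 95% interval of -0.35 to 0.45.

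SLC38A2 had 11.1 and 8.88 footprints per 100 mRNA reads with shBP2-1, 9.86 and 11.4 with shBP2-2, and 16.9 and 16.1 with shNS. All knockdown libraries were below shNS and the hairpins again overlapped, although their mRNA levels differed 2.54-fold. Against shNS the log2 change was -0.72 ± 0.18 with shBP2-1 (adjusted p = 0.0223, limma voom) and -0.63 ± 0.11 with shBP2-2 (adjusted p = 0.00241), the mean of both was -0.67 ± 0.12 (adjusted p = 0.00155), and the hairpins differed by -0.09 (95% interval -0.48 to 0.30). For SLC1A5 and SLC38A2 the mean of both kept its call without any 1 replicate. With shBP2-1 alone both calls were lost when replicate 2 of shBP2-1 was left out (adjusted p = 0.0725 for SLC1A5 and 0.143 for SLC38A2), and likewise for replicate 1 of shNS (0.0880 and 0.0944) and replicate 2 of shNS (0.0810 and 0.0705). With shBP2-2 alone both were lost when replicate 1 of shNS was left out (0.0551 and 0.0549).

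GOT1 had 23.9 and 26.9 footprints per 100 mRNA reads with shBP2-1, 21.1 and 18.9 with shBP2-2, and 13.9 and 15.5 with shNS. Each knockdown library was above both of shNS. The log2 change was 0.81 ± 0.25 with shBP2-1 (adjusted p = 0.0479, limma voom) and 0.44 ± 0.18 with shBP2-2 (adjusted p = 0.0838), and the mean of both was 0.62 ± 0.17 (adjusted p = 0.0155). The mean was not called when replicate 1 of shBP2-2 (adjusted p = 0.0546) or either replicate of shNS (0.138 and 0.0663) was left out, and the shBP2-1 call of GOT1 was lost whichever of the 6 replicates was left out (0.0571 to 0.236). When footprint and mRNA libraries of the same hairpin and number were paired, a fit added after the values were seen, the mean of both hairpins missed the threshold for SLC1A5 (0.0546), SLC38A2 (0.0557) and GOT1 (0.0546).

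GPT2 had 7.68 and 4.08 footprints per 100 mRNA reads with shBP2-1, 2.76 and 2.93 with shBP2-2, and 2.37 and 2.69 with shNS. Its log2 change in the mean of both was 0.75 ± 0.31 (adjusted p = 0.0723, limma voom) and passed the test without shBP2-1 replicate 2 (0.95, adjusted p = 0.0301). GLUL, GLUD1 and GOT2 gave 0.16, -0.04 and 0.19, with 95% intervals of -0.05 to 0.37, -0.32 to 0.25 and -0.20 to 0.57.

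**Figure D4:**
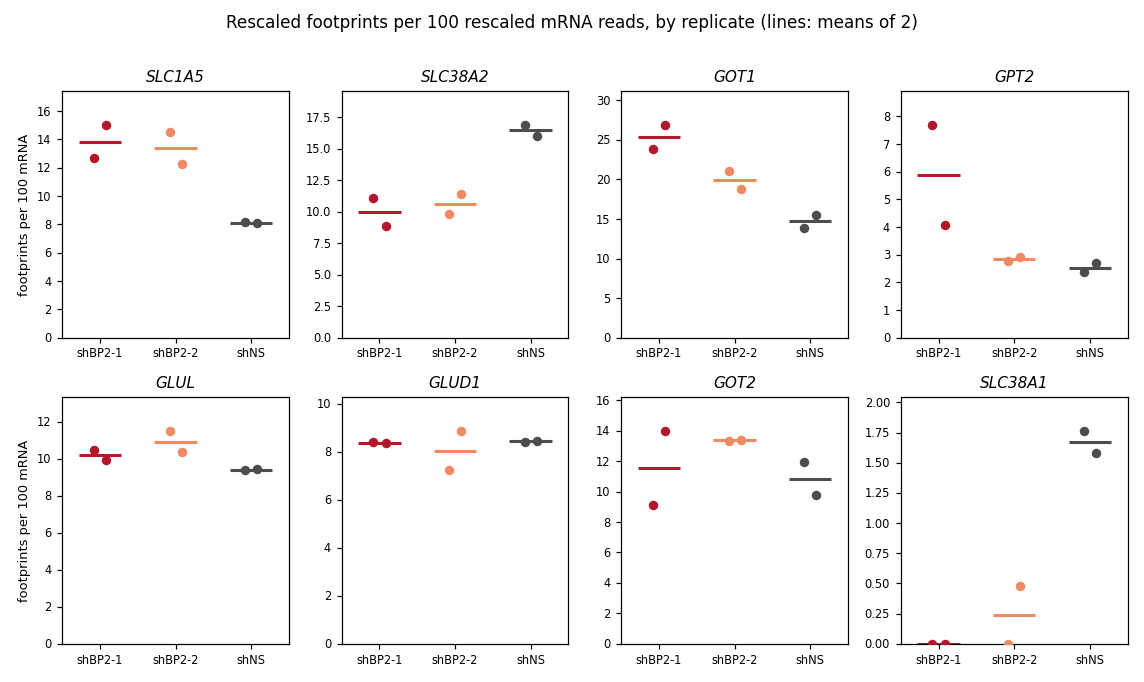
Rescaled footprints per 100 rescaled mRNA reads (y axis, from 0, a scale of its own for each gene) by replicate number of shBP2-1, shBP2-2 and shNS (x axis); points are replicates and lines the means of 2. SLC1A5 and GOT1 are above shNS in all 4 knockdown replicates, SLC38A2 is below it in all 4, and GPT2 is highest with shBP2-1, on few footprints.

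Summed by role, the 3 importers had 8885 and 8558 rescaled mRNA reads with shBP2-1, 16722 and 17398 with shBP2-2, and 19874 and 19979 with shNS. Their footprints summed to 1067 and 1020 with shBP2-1, 1929 and 2037 with shBP2-2, and 2328 and 2291 with shNS. The importer sums were thus lowest with shBP2-1 and intermediate with shBP2-2 in both assays. The 5 enzymes had summed mRNA values of 13595 and 13982 with shBP2-1, 13480 and 13261 with shBP2-2, and 15118 and 15211 with shNS, so all 4 knockdown libraries were below shNS. Enzyme footprints summed to 1358 and 1389 with shBP2-1, 1309 and 1303 with shBP2-2, and 1339 and 1347 with shNS. They were thus slightly above shNS with shBP2-1 and slightly below it with shBP2-2. In these sums genes with many reads weigh most.

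Other genes of glutamine use were called in both directions, in shares to be read against the 29.3% lower and 29.1% higher over all genes. The genes named from each list are the 3 with the smallest mRNA p in these same libraries. Their mRNA changes and p-values are therefore extreme by that choice, and footprint changes, which were not chosen so, are not an even comparison. Of 10 amidotransferase genes, which take nitrogen from glutamine, 10 were tested in mRNA, with 5 called lower, 3 higher and a median log2 change of -0.06. ASNS, which makes asparagine, had a log2 change of -1.01 ± 0.09 in the mean of both hairpins (adjusted p = 1.41e-05, limma). ASNS mRNA was 29.1% of shNS with shBP2-1 and 84.5% with shBP2-2, where it missed the threshold (adjusted p = 0.0697). Its footprints fell by 1.47 ± 0.13 (adjusted p = 3.71e-05), to 21.4% of shNS with shBP2-1 and 58.8% with shBP2-2. PFAS of purine synthesis fell by 0.58 in mRNA (63.8% of shNS with shBP2-1 and 70.2% with shBP2-2) and gave -0.10 ± 0.13 in footprints (adjusted p = 0.678). CAD of pyrimidine synthesis fell by 0.52 in mRNA (63.3% and 76.9%), whereas its footprints were called higher (0.27 ± 0.07, adjusted p = 0.0257), at 107% of shNS with shBP2-1 and 137% with shBP2-2. The footprint call of CAD was lost without either library of shBP2-1 (0.299 and 0.0663) or of shBP2-2 (0.0694 and 0.0518), with quantile scaling (0.0794), with limma-trend (0.0842) and with both assays in 1 fit (0.207).

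Of 11 other glutamine carriers of the plasma membrane and lysosome, 8 were tested, with 4 lower, 1 higher and a median of -0.49 (29.3% lower and 29.1% higher over all genes). SLC7A5 and SLC3A2, the subunits of an exchanger that lets glutamine out in return for leucine, fell by 1.22 ± 0.10 (adjusted p = 4.17e-06, limma) and 0.96 ± 0.09 (adjusted p = 1.23e-05). With shBP2-1 they stood at 33.9% and 39.9% of shNS, and with shBP2-2 at 54.4% and 66.7%. Their footprints fell by 0.63 ± 0.14 (adjusted p = 0.0155, limma voom) for SLC7A5 and 0.58 ± 0.08 (adjusted p = 5.42e-04) for SLC3A2, and the SLC7A5 footprint call depended on both shBP2-1 replicates (0.168 and 0.0909 when left out). SLC38A9, a lysosomal carrier that signals to mTORC1, rose in mRNA by 0.52 ± 0.10 (adjusted p = 0.00104), to 155% of shNS with shBP2-1 and 133% with shBP2-2. Its footprints did not rise and stood at 76.6% of shNS with shBP2-1 and 71.1% with shBP2-2. Their log2 change in the mean of both was -0.42 (adjusted p = 0.162, limma voom).

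Of 20 other enzymes that make or use glutamate, 15 were tested, with 6 lower, 4 higher and a median of -0.15. Over all genes 29.3% were called lower and 29.1% higher, which holds for each list. PSAT1, the transaminase of serine synthesis, fell by 1.15 ± 0.08 in mRNA (adjusted p = 1.99e-06, limma) and by 0.99 ± 0.08 in footprints (adjusted p = 3.09e-05). Most of this came with shBP2-1, where PSAT1 mRNA was 26.3% of shNS and its footprints 34.9%, against 76.8% and 72.6% with shBP2-2. PYCR1 of proline synthesis fell by 0.82 ± 0.11 in mRNA and gave 0.09 ± 0.11 in footprints (adjusted p = 0.648), and KYAT3, a kynurenine aminotransferase, rose by 0.69 ± 0.09 in mRNA. KYAT3 footprints were 91.6% of shNS with shBP2-1 and 89.1% with shBP2-2 (-0.13 in the mean of both, adjusted p = 0.499, limma voom). Of 12 genes of mitochondrial glutamate carriers, the malate-aspartate shuttle and 2-oxoglutarate oxidation, 11 were tested, with 5 lower, 5 higher and a median of 0.09. MDH2 and OGDH fell by 0.58 and 0.52 in mRNA while ME1 rose by 0.67 (adjusted p = 6.56e-04, 8.48e-04 and 3.48e-04). ME1 mRNA was 121% of shNS with shBP2-1, where it was not called (adjusted p = 0.0812), and 211% with shBP2-2. ME1 footprints were 47.3% of shNS with shBP2-1 and 149% with shBP2-2 (-0.19 in the mean of both, adjusted p = 0.636, limma voom). MDH2 mRNA was 79.9% of shNS with shBP2-1 and 56.3% with shBP2-2, while its footprints were called higher with shBP2-1 (138%) and lower with shBP2-2 (85.6%). OGDH mRNA was 72.6% of shNS with shBP2-1 and 67.4% with shBP2-2.

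In footprints, where 4.28% of all genes were called lower and 4.96% higher in the mean of both hairpins, the same lists held calls in both directions. Of 9 amidotransferase genes tested 1 was lower and 2 were higher, and of 6 carriers 2 were lower and 1 was higher. Of 14 glutamate enzymes 2 were lower and 2 higher, and of 11 shuttle and oxidation genes 1 was lower and 1 higher.

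**Figure D5:**
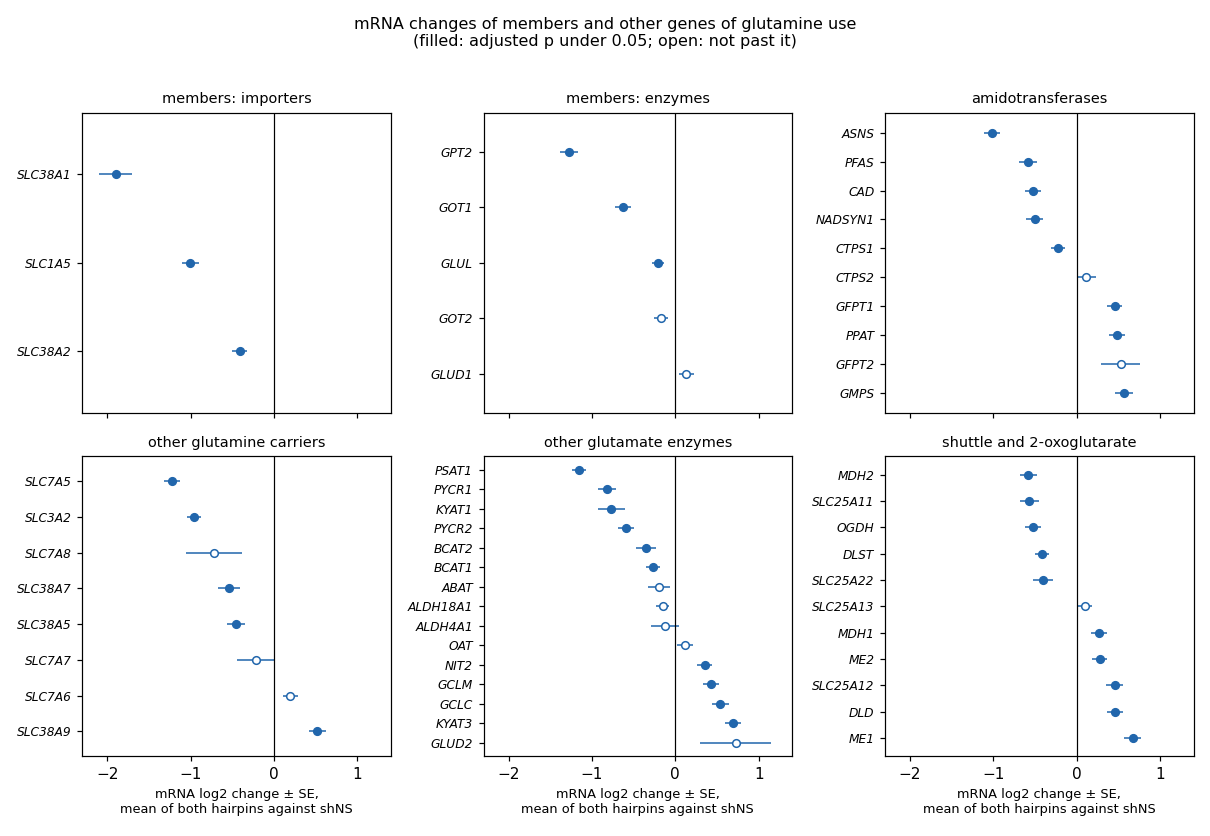
mRNA log2 changes of the mean of both IGF2BP2 hairpins against shNS (x axis, with SE bars) of the importers and enzymes and of the tested genes of the other lists of glutamine use (rows); filled points have an adjusted p under 0.05. All 3 importers lie below 0, and the other lists hold points on both sides, with ASNS at -1.01, SLC7A5 at -1.22 and PSAT1 at -1.15 among the lowest.

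The genes with the most similar mRNA pattern were sought by the root mean square difference of log2 values, each taken against its shNS mean, over the 4 knockdown libraries among 10033 other genes. SLC1A5 was nearest to ATF5 (0.046) and PKD1 (0.079). GPT2 was nearest to CARS1 (0.098) and SLC7A5 (0.11), and SLC38A2 to FLRT2 (0.11) and KDM7A (0.12). SLC38A1 had no close match, with CTH at 0.42 and STC2 at 0.43. GOT1 was nearest to TWIST2 (0.038) and ALDH2 (0.042), GLUL to YBX1 (0.012) and ABT1 (0.019), GOT2 to CREB3 (0.011) and EZH1 (0.024), and GLUD1 to MRPL44 (0.016) and ELF1 (0.017). The distance runs over single libraries, so deviations between replicates enter it, which shBP2-1 and shBP2-2 mRNA shared across genes (correlation -0.637, given below). It is not scaled to the size of a change, and was smallest for GLUL, GOT2 and GLUD1, whose mean mRNA changes were smallest.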

How the data were processed

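The series holds mRNA and ribosome footprint libraries of MM6 cells with shBP2-1, shBP2-2 or shNS, 2 replicates each. The deposited value per gene and library is treated as a score, since the authors named it a normalized read count, its values were rounded to whole numbers, and the sources used here do not say how it was normalized. Per the submitters' processing notes the build was hg38 and the tools were FastQC, cutadapt, Bowtie, STAR and RSEM, with no versions or roles.

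The 8 members, the 4 lists of other glutamine genes and the tests were chosen with earlier results of these data known. Each assay was rescaled by itself, with 1 median-ratio factor per library. A gene was tested when its mean deposited value reached 10 (in both assays for translational efficiency). For mRNA limma (3.58.1, R 4.3.3) with a mean-variance trend was fitted to log2(rescaled value + 1), so fold changes are on that scale. Footprints and translational efficiency, an interaction over all 12 libraries, used limma voom weights. The fits had 3, 3 and 6 residual degrees of freedom for mRNA, footprints and translational efficiency. Because limma draws the spread of each gene toward that of other genes, the tests rest on more than these. With a replicate left out this spread was estimated anew, and its part in calls gained or lost there was not tested. Tests were two-sided, with Benjamini-Hochberg adjustment over all genes tested. The fits were also run on simulated independent libraries, with large changes placed in genes with many reads in both assays. That run does not cover small changes, genes with few footprints or deviations shared between replicates. Besides the members, the text names IGF2BP2, GPT, GLUD2, the 3 genes with the smallest mRNA p of each list, and the 2 genes nearest to each member in mRNA pattern. Other genes of this rule, which the lists then leave out, are not reported here. Footprint totals were lowest for shBP2-1, so its footprint values are the least precise. Raw depth is not known, so no counting intervals are given. Alternatives were other scalings, minimum values, pseudocounts and tests, a replicate block, 1 fit over all 12 libraries, and leaving out each replicate. Promoter windows are from RefSeq (GRCh38.p14).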

Additional observations from a re-analysis of the deposited data

Results flagged for a closer look

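The effect against shNS differed between the hairpins, by limma's test of the difference itself, in 6 results on 4 of the glutamine genes, and each was lower with shBP2-1 than with shBP2-2. In mRNA the log2 difference was -3.32 for SLC38A1 (adjusted p = 5.70e-07), -1.35 for SLC38A2 (1.29e-06), -0.89 for GPT2 (2.13e-04, and 0.132 with both assays in 1 fit) and -0.54 for SLC1A5 (0.00505). In footprints it was -1.44 for SLC38A2 (1.22e-05) and -0.49 for SLC1A5 (0.00862, and 0.141 in that fit). IGF2BP2 mRNA was 20.3% of shNS with shBP2-1 and 31.2% with shBP2-2, and its footprints were 5.57% with shBP2-1 and 10.7% with shBP2-2. The footprint libraries of shBP2-1 also had the lowest totals. The part of knockdown depth, of library depth and of any other target of a hairpin in these differences was not tested.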

How the results depend on the processing

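Counts of members called, in either direction, changed most without rescaling of the deposited values, where unequal footprint totals enter every footprint value. There all 7 tested members were called lower in footprints in each of the 4 comparisons, and 7, 7, 6 and 7 were called in translational efficiency for the mean of both hairpins, shBP2-1, shBP2-2 and the difference between hairpins. Footprint values reversed to -3.29 with shBP2-1 and -1.99 between hairpins for GLUL, to -2.17, -3.25 and -1.08 for GLUD1 and -2.23, -3.29 and -1.17 for GOT2 (mean of both, shBP2-1, shBP2-2), to -2.12 between hairpins for GOT2, to -3.27 with shBP2-1 and -2.03 between hairpins for GOT1, and to -1.96 between hairpins for GPT2. Translational efficiency (mean of both, shBP2-1, shBP2-2) reversed to -1.50, -2.57 and -0.44 for SLC1A5, -2.08, -3.21 and -0.94 for GLUL, -1.62, -2.52 and -0.71 for GOT1, -2.04, -3.25 and -0.84 for GOT2, and -1.52, -2.07 and -0.96 for GPT2, and between hairpins to -2.13 for SLC1A5, -2.10 for GLUD1, -1.81 for GOT1 and -1.11 for GPT2. Footprints of CAD, MDH2 and PYCR1 reversed to -1.98, -2.13 and -2.16 in the mean of both. No other setting reversed a called value.

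One fit over all 12 libraries called 3 members in mRNA with shBP2-2 (6 as reported) and 3 between hairpins (4, without GPT2), and 1 in footprints for the mean of both, shBP2-1 and the difference between hairpins (2 each as reported). Between footprint and mRNA libraries of the same hairpin and number, deviations correlated at -0.027 for shBP2-1, -0.068 for shBP2-2 and 0.037 for shNS. Genes entered on their mean over both assays, so many had few footprints, and these values cannot tell whether the numbers pair the libraries. With such libraries paired, translational efficiency called 0, 1 (GOT1) and 0 members for the mean of both, shBP2-1 and shBP2-2, against 3, 3 and 2. With no minimum value it called 1 between hairpins, against 0. Between hairpins, same-numbered mRNA deviations correlated at -0.637 for shBP2-1 and shBP2-2, 0.200 for shBP2-1 and shNS and -0.145 for shBP2-2 and shNS. In footprints the same pairs gave 0.028, 0.134 and 0.113. The mRNA replicates of shBP2-1 and shBP2-2 thus deviated along a common axis, in opposite order of their numbers. Whether replicates share a batch is not in the labels and was not tested, and the reported fits hold no batch term. A replicate block called 5 members in mRNA for the mean of both and 4 with shBP2-2, and 2 in translational efficiency with shBP2-1, the cause of which was not tested. A crossed block, chosen after the data were seen, called 7 members between hairpins in mRNA, against 4. Leaving out each replicate gave 5 to 8 members in mRNA for the mean of both, 3 to 7 with shBP2-2 and 4 to 5 between hairpins, 1 to 2 in footprints for the mean of both, shBP2-1 and the difference, and 2 to 4, 0 to 2 and 0 to 2 in translational efficiency for the mean of both, shBP2-1 and shBP2-2. Of the values of single members, 453 kept direction and side of the threshold without a library, 43 crossed the threshold (38 lost a call, 5 gained one) and 32 uncalled values changed sign.

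Calls over all genes for the mean of both hairpins ran from 3123 to 8399 in mRNA (7128 as reported), from 272 to 1123 in footprints (860) and from 36 to 3276 in translational efficiency (2653) over these settings other than no rescaling, which gave 7129, 9268 and 9165. For shBP2-1, shBP2-2 and the difference between hairpins the ranges were 1645 to 7351 (5425), 3063 to 8230 (6915) and 714 to 5114 (2845) in mRNA, 115 to 1624 (627), 261 to 1543 (1148) and 125 to 2010 (583) in footprints, and 128 to 2908 (991), 0 to 3255 (2205) and 59 to 469 (80) in translational efficiency. The low footprint totals of shBP2-1 limit the precision for GPT2 and SLC38A1.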
